A study of Mus musculus with 8 samples.

Results

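Fatty acid synthesis, uptake and storage were followed through 44 genes in mouse trophectoderm after a control or a high fat maternal diet. The genes were listed by function, from the enzymes that build a fatty acid chain to the proteins that import it, store it in droplets or export it in lipoproteins. They were chosen with earlier results of these data known. A gene counted as measured when a probe set of the array was annotated to its symbol alone, and where a gene had several such probe sets the one with the highest mean was to be kept. By that rule 38 of the 44 genes were measured, each by 1 probe set, out of 16015 probe sets with a gene symbol and 23332 in all. Acss2, Fabp5, Lipe and Apoa1 had only a probe set shared with another symbol, and Me1 and Apob had none, so these 6 genes were not analysed here.

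Trophectoderm, the outer layer of the blastocyst, later forms the trophoblast of the placenta. Here it was taken at embryonic day 4.5 from the pole opposite the inner cell mass. Dams and sires were C57BL/6J mice of unmodified genotype as far as the labels say. Control dams ate Lab Diet 5015 and the other dams the high fat diet Teklad 06414, from weaning up to mating at 16 weeks, and the labels used here do not state the diet after mating. Each of the 4 control and 4 high fat diet samples pooled the trophectoderm of 5 blastocysts, and its RNA was amplified in 2 rounds and hybridised to an Affymetrix array. Values are signals on the log2 scale, with a precision that the number of arrays limits. The labels name biological replicates without saying which dams gave each pool, so the spread between arrays is that between pools. In pooled tissue, fewer cells of a type and less RNA per cell cannot be told apart.

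Cells make fatty acids in the cytosol from acetyl-CoA. Citrate lyase supplies the acetyl-CoA, acetyl-CoA carboxylase turns it into malonyl-CoA, and fatty acid synthase joins these units to palmitate, which elongases and desaturases then modify. Fatty acids also enter from outside through lipases, transport proteins and binding proteins, and are esterified to glycerol as triglyceride in droplets coated by perilipins. Preimplantation mouse embryos hold lipid droplets, and the trophectoderm is the layer that faces uterine fluid.

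None of the 38 measured genes passed the limma threshold (adjusted p of 0.05 over 16015 probe sets), and 1 probe set did so among all tested, 0.00624% in both directions together, 0% in the higher and 0.00624% in the lower direction. At an unadjusted limma p under 0.05, 12 genes (31.6%) read higher with the high fat diet, against 30.1% of all tested probe sets, and 0 read lower, against 1.79%. All 4 high fat diet arrays lay above all 4 control arrays for 12 genes (31.6%), against 25.4% of all tested, and below them for 0, against 0.855%. These shares were near those of the whole array. The median log2 change of the 38 genes was +0.25, against +0.22 for all tested probe sets, and 29 genes (76.3%) had a change above 0, against 78.7%. Set against that array-wide median, 20 genes lay above and 18 below.

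**Figure D1:**
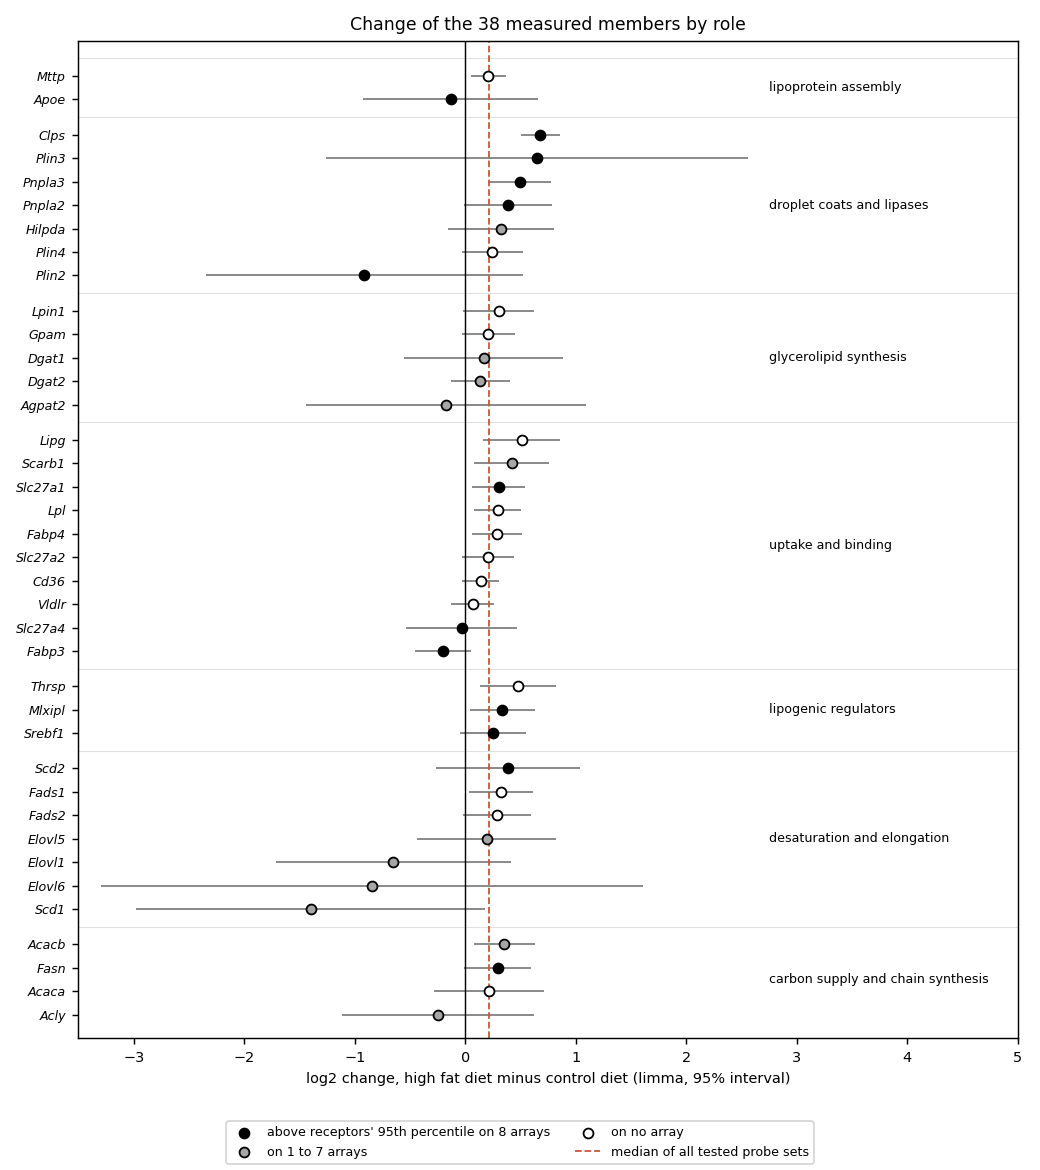
Log2 change (high fat diet minus control diet) of each of the 38 measured genes, grouped by role, with limma's 95% interval as a bar; black points lay above the chemosensory receptors' 95th percentile on all 8 arrays, grey points on 1 to 7 and white points on none. Most points sit near the dashed line at +0.22, the median of all tested probe sets, and the widest intervals belong to Elovl6, Plin3, Scd1 and Plin2.

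High fat diet arrays read higher as a whole. The array medians ran from 5.60 to 5.71 with the control diet and from 5.76 to 5.96 with the high fat diet. Chemosensory receptors, 843 probe sets for genes of sensory neurons, served as a background on each array. Over the 4 control arrays their median was 4.05 ± 0.05 (mean ± SD) and their 95th percentile 5.99 ± 0.11. Over the 4 high fat diet arrays these were 4.25 ± 0.11 and 6.35 ± 0.22. High fat diet replicate 3 stood apart, its mean correlation to the remaining arrays being 0.832, against 0.879 to 0.890 for each of those, with the highest receptor percentile (6.65). Of the trophectoderm markers, 10 of 12 were measured and 7 exceeded the receptors' 95th percentile throughout, among them the keratin Krt18 (11.40 to 12.90 over the 8 arrays), the transcription factor Gata3 and the growth factor receptor Fgfr2. Gata3 ran from 10.81 to 11.42 with the control diet and from 7.97 to 10.70 with the high fat diet, and Fgfr2 from 7.81 to 9.94 and from 6.74 to 8.11. These were the 2 of 10 markers that read lower at an unadjusted limma p under 0.05, against 1.79% of all tested probe sets. At that p 0 markers read higher, against 30.1%, and 0 passed after adjustment. The mean of the 10 markers ran from 7.98 to 8.37 and from 7.60 to 8.31. The part of this in the values below was not tested. Of the blood cell markers 6 of 9 were measured, none above the receptors' percentile on any array. Inner cell mass markers were present too. Their mean over 8 genes was highest on control diet replicate 2 (7.72, against 6.08 to 6.97 on the other arrays), through the epiblast gene Tdgf1, which read at 10.33 there and was below the receptors' percentile elsewhere, and Pou5f1, which read at 11.72. The other markers did not rank that array alike. Sox2 was highest on it, at a level below the percentile, and Nanog read at 8.26, below only control diet replicate 1 (8.38). Zfp42 was lowest on it (7.23). Fgf4, Klf2 and Esrrb were lower on every control array than on any high fat diet array, as were 25.4% of all tested probe sets. Among control arrays Esrrb, below the percentile, and Klf2, by a very small margin, were highest on it, and Fgf4 was not.

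Against the receptors' 95th percentile, 13 of the 38 genes (34.2%) were above it on all 8 arrays, against 24.2% of all tested probe sets, and 14 (36.8%) were above it on none, against 49.6%. The 14 were Acaca, Fads1, Fads2, Thrsp, Cd36, Slc27a2, Fabp4, Lpl, Lipg, Vldlr, Gpam, Lpin1, Plin4 and Mttp. Their signals are not well above background, so their differences are given as readings and no fold is drawn from them. All 14 read higher with the high fat diet, by +0.07 to +0.51, with a median of +0.27. Among the 7938 probe sets of the whole array at this level, 7.71% had a change below 0 and the median was +0.22. The median of the 14 genes ran from 4.85 to 5.05 over control arrays and from 5.00 to 5.41 over high fat diet arrays. High fat diet replicate 3 gave the highest reading for 11 of the 14, and it was also the array with the highest receptor median, 4.39. After median centring 12 of the 14 still read higher, after quantile normalization 13 and after cyclic loess 11.

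**Figure D2:**
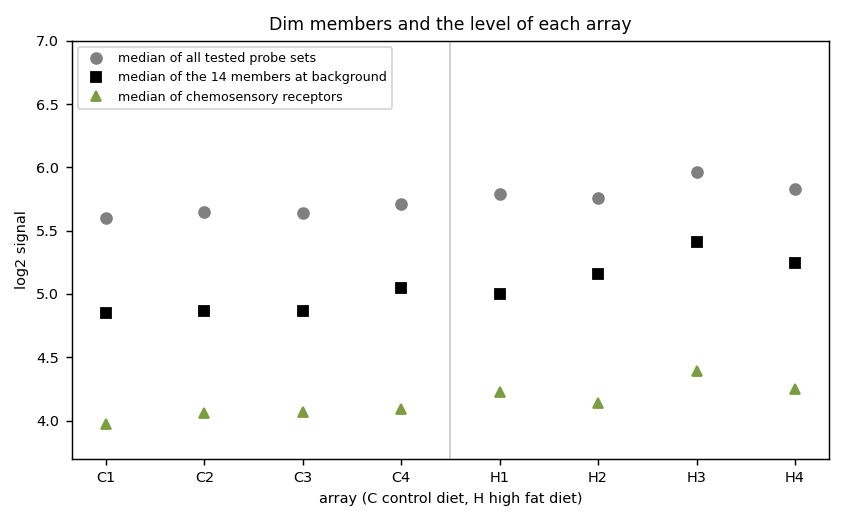
Log2 signal on each array (C1 to C4 control diet, H1 to H4 high fat diet) as the median of all tested probe sets, of the 14 genes at background and of the chemosensory receptors. All 3 medians are highest on high fat diet replicate 3, where they read 5.96, 5.41 and 4.39.

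Of the enzymes that supply carbon and build the chain, 4 of 6 were measured, and 0 passed. Fasn, the synthase that assembles palmitate, read at 6.04, 6.10, 6.08 and 6.36 on control arrays and at 6.40, 6.23, 6.73 and 6.39 on high fat diet arrays. The groups overlapped through control diet replicate 4, and the log2 change was +0.29 with an SE of 0.13 (limma adjusted p = 0.16). Acacb, the carboxylase isoform of the mitochondrial surface, read at 5.74, 6.01, 5.89 and 5.80 and at 6.03, 6.11, 6.48 and 6.22. The groups lay apart by a small gap, but only 1 of the 8 values, on control diet replicate 2, was above the receptors' percentile of its array. Its change was +0.35 with an SE of 0.12 (limma adjusted p = 0.12). Acaca, the cytosolic carboxylase that commits carbon to synthesis, was at background on all arrays, with its highest value, 5.58, on high fat diet replicate 2. Acly, the citrate lyase, was outside the rule for named genes. It read at 5.95, 7.60, 6.01 and 5.89 on control arrays and at 6.06, 6.03, 6.22 and 6.17 on high fat diet arrays. Acly was above the receptors' percentile on 3 of 4 control arrays, by a wide margin only on replicate 2, and on 0 high fat diet arrays. The percentile itself was higher on high fat diet arrays (mean 6.35, against 5.99 on control arrays). The change of Acly was -0.24 with an SE of 0.37 (limma adjusted p = 0.65), and +0.17 without control diet replicate 2, so no fold is given.

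The 7 desaturases and elongases were all measured, and they held some of the widest spreads among the 38 genes. Scd1 and Elovl6, chosen here after their values were seen, gave the strongest signals. Scd1, the desaturase that makes oleate and palmitoleate, read at 8.91, 8.81, 9.40 and 10.10 with the control diet and at 9.43, 8.14, 6.03 and 8.01 with the high fat diet. High fat diet replicate 1 lay within the control range, replicates 2 and 4 below it, and replicate 3 was below the receptors' percentile of its array. The log2 change was -1.40 with an SE of 0.68 and a 95% interval from -2.98 to +0.18 (limma adjusted p = 0.19). It was -0.77 without high fat diet replicate 3 and -1.91 without high fat diet replicate 1. In the latter case the groups no longer overlapped, as for 1.52% of all tested probe sets in the lower direction.

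Elovl6, which extends palmitate to stearate, read at 9.32, 10.22, 8.29 and 8.39 and at 7.17, 7.61, 6.63 and 11.44. Of the high fat diet arrays 3 lay below every control array, and replicate 4 lay above them all. The change was -0.84 with an SE of 1.05 (limma adjusted p = 0.57), and it moved to -1.92 without that replicate and to -0.32 without replicate 3, whose value was just below its receptors' percentile. Scd2, a second desaturase gene of the same type, did not follow Scd1 in sign. It read at 6.37, 6.84, 6.53 and 7.49 and at 7.09, 6.98, 6.98 and 7.74, a change of +0.39 with an SE of 0.28 (limma adjusted p = 0.33), which was +0.21 without high fat diet replicate 4 and +0.62 without control diet replicate 4. The difference between Scd1 and Scd2 was not tested.

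Elovl1, the elongase of very long saturated chains, was above the receptors' percentile on 3 of 4 control and 1 of 4 high fat diet arrays, with a change of -0.65 and an SE of 0.46. That change was -0.32 without control diet replicate 3, the highest array at 7.50. Elovl5, which extends polyunsaturated chains, was above the percentile on 1 array of each diet and differed by +0.19. The desaturases of polyunsaturated fatty acids were at background on every array. Fads1 read at 4.85, 5.16, 5.18 and 5.21 and at 5.31, 5.29, 5.68 and 5.42, with the groups apart and a change of +0.33 (SE 0.12, limma adjusted p = 0.14), and Fads2 differed by +0.29.

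Lipogenic regulators were measured for 3 of 3 genes, all with readings higher by more than the median of the array, and 0 passed. Srebf1, the transcription factor of fatty acid synthesis genes, was above the receptors' 95th percentile on all 8 arrays. It read at 6.70, 6.74, 6.89 and 7.08 and at 7.07, 6.92, 7.36 and 7.07, so the groups overlapped, and the change of +0.25 (SE 0.13, limma adjusted p = 0.20) was close to the array's +0.22. With cyclic loess scaling it was -0.03. Mlxipl, the carbohydrate-responsive partner of Srebf1 in lipogenic control, read at 6.34, 6.37, 6.41 and 6.65 and at 6.64, 6.67, 7.07 and 6.75. The overlap came from control diet replicate 4 alone, and the change was +0.34 with an SE of 0.12 (limma adjusted p = 0.13). Thrsp, a lipogenic protein of liver and fat that responds to thyroid hormone, was at background on every array, with readings of 5.18, 5.01, 5.17 and 5.35 and of 5.73, 5.29, 5.94 and 5.65 (change +0.48, SE 0.15, limma adjusted p = 0.12).

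The promoter of Mlxipl is shown because it was the 1 promoter among those of the listed genes that held the letters of a sterol regulatory element, TCACNCCAC, which SREBP factors are known to bind. Sequences are from the RefSeq table of build GRCm38.p6 and run 5′ to 3′ from 250 bases before to 50 bases after the first listed start of the gene, with motifs in capitals. For Mlxipl (chr5:135106641-135106940, plus strand) the capitals mark that element.
Mlxipl: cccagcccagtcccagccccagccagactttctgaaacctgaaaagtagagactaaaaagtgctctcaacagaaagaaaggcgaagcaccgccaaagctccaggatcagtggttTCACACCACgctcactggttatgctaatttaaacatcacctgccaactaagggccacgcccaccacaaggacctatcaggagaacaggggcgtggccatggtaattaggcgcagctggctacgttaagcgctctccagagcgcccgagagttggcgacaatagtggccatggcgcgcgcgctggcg

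Genes of uptake and binding made up the largest role, with 10 of 11 measured. None passed, 8 read higher and 2 lower, and 5 had groups apart in the higher direction, beside 78.7% higher and 25.4% apart among all tested probe sets. Fabp3, the heart-type fatty acid binding protein, was above the receptors' 99th percentile on all 8 arrays and varied little. It was outside the rule for named genes and was chosen after its values were seen. It read at 13.51, 13.55, 13.55 and 13.85 with the control diet and at 13.31, 13.33, 13.58 and 13.44 with the high fat diet. The groups overlapped through high fat diet replicate 3, and the change was -0.20 with an SE of 0.11 and a 95% interval from -0.45 to +0.05 (limma adjusted p = 0.22). Set against the array-wide median it was -0.42, but the 2084 probe sets at its signal level had a median of +0.10, less than the +0.22 of all tested. Every high fat diet array was below every control array after median centring (change -0.39), as for 2.62% of all tested probe sets. The same was seen after quantile normalization (-0.25, share 1.89%) and without high fat diet replicate 3 (-0.26, share 1.20%). With cyclic loess the groups overlapped and the change was +0.28.

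Because Fabp3 is the binding protein with the clearest signal, its promoter (chr4:130308488-130308787, plus strand) is shown. It held 22 CpG dinucleotides and none of the 6 motifs searched, so no letters are in capitals.
Fabp3: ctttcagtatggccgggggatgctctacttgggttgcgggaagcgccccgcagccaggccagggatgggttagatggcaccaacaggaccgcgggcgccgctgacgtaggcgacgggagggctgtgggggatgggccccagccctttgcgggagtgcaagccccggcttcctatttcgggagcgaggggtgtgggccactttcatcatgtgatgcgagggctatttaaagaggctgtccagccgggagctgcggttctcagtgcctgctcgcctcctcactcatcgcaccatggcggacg

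The transport proteins of the Slc27a family, which couple fatty acid entry to activation with CoA, differed in signal. Slc27a4, the family member known from intestine and placenta, read at 7.21, 7.47, 7.31 and 7.40 and at 7.20, 7.10, 7.97 and 6.98. High fat diet replicate 3 was above and the other high fat diet arrays were below all control arrays, the change was -0.03 with an SE of 0.21 (limma adjusted p = 0.92), and it was -0.25 without that replicate. Slc27a1, the insulin-responsive member of muscle and fat, was above the receptors' 95th percentile on all arrays but above the 99th on none. It read at 6.15, 6.19, 6.33 and 6.26 and at 6.44, 6.39, 6.77 and 6.54, with groups apart (change +0.30, SE 0.10, limma adjusted p = 0.12), and at +0.00 with cyclic loess. Slc27a2, of liver and kidney, was at background.

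The lipases and receptors at the cell surface were at or near background. Lpl, which frees fatty acids from circulating triglyceride, read at 4.85, 4.88, 4.89 and 4.77 and at 5.06, 4.99, 5.28 and 5.23 (change +0.29, SE 0.09, limma adjusted p = 0.12). Lipg, the endothelial lipase, read at 5.27, 5.35, 5.57 and 5.45 and at 5.94, 5.66, 6.30 and 5.78 (change +0.51, SE 0.15, limma adjusted p = 0.12). On both genes every high fat diet array was above every control array, and on both every value was below the receptors' percentile of its array. Scarb1, the receptor for high density lipoprotein, read at 5.84, 5.88, 5.73 and 6.00 and at 6.40, 6.11, 6.61 and 6.00. The lowest high fat diet value exceeded the highest control value by less than the last digit given. It was above the percentile on 1 array, high fat diet replicate 1, so its change of +0.42 (SE 0.15, limma adjusted p = 0.12) is a reading at background from which no fold is drawn. Fabp4, the adipocyte binding protein, read at 4.16, 4.23, 4.06 and 4.31 and at 4.46, 4.34, 4.65 and 4.47 (change +0.29, SE 0.10, limma adjusted p = 0.12). Cd36, the fatty acid translocase, read between 3.44 and 3.71 on all 8 arrays, and Vldlr, the receptor for very low density lipoprotein, between 4.22 and 4.50. Of the adipocyte markers 6 of 7 were measured. Their mean ran from 5.47 to 5.61 with the control diet and from 5.61 to 5.99 with the high fat diet. Plin1 and Cidec lay above the receptors' percentile on all 8 arrays, Retn on 7, Pparg on 1, and Adipoq and Lep on none. Of the 6, Plin1 (+0.49) and Pparg (+0.21) had groups apart in the higher direction, as had 25.4% of all tested probe sets. The part of such cells in the values of Fabp4 and Lpl was not tested.

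The 5 enzymes that esterify fatty acids to glycerol were all measured, and 0 passed. Groups were apart for 0 of them, beside 25.4% in the higher and 0.855% in the lower direction among all tested probe sets. Their median change was +0.17. Dgat2, which completes triglyceride synthesis, was above the receptors' percentile on 7 arrays and read from 6.20 to 6.48 with the control diet and from 6.28 to 6.69 with the high fat diet, a change of +0.14 (SE 0.115). Dgat1, which catalyses the same step, was above the percentile on 5 arrays and had 1 high control array, replicate 1 at 6.80, against 6.01 to 6.07 on the other control arrays. On high fat diet arrays Dgat1 read at 6.05, 6.76, 6.96 and 5.79, and the change was +0.17 with an SE of 0.31. Agpat2, which makes phosphatidic acid, was high on control diet replicate 2 (8.23) and high fat diet replicate 1 (7.49) and between 5.88 and 6.93 elsewhere. Its change was -0.17 with an SE of 0.55, and +0.30 without control diet replicate 2. Gpam, the mitochondrial enzyme that starts glycerolipid synthesis, and Lpin1, a phosphatidate phosphatase, were at background with changes of +0.21 and +0.30.

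Droplet coats and lipases were measured for 7 of 8 genes, of which 6 read higher than control and 1, Plin2, lower, and 4 had groups apart in the higher direction, beside the same 78.7% and 25.4%. Plin2, the droplet coat of most cell types that store lipid, was above the receptors' 95th percentile on all 8 arrays. It read at 9.17, 10.20, 8.58 and 7.31 and at 7.93, 8.74, 7.85 and 7.10. Control arrays spread over a wider range than high fat diet arrays, and the groups overlapped. The change was -0.91 with an SE of 0.61 and a 95% interval from -2.34 to +0.52 (limma adjusted p = 0.31), and it was -0.45 without control diet replicate 2 and -1.41 without control diet replicate 4. Plin2, Acly, Agpat2 and Apoe had their highest values on control diet replicate 2. The inner cell mass markers Pou5f1, Tdgf1 and Sox2 were highest on that array too, and Nanog was exceeded only on control diet replicate 1. Klf2 and Esrrb were highest there among control arrays only, and Zfp42 and Fgf4 were not. The part of inner cell mass cells was not tested. Plin3, a coat protein that moves between cytosol and droplets, read at 7.14, 7.19, 6.78 and 7.49 and at 6.66, 10.52, 6.86 and 7.17. The change of +0.65 (SE 0.82, limma adjusted p = 0.58) came from high fat diet replicate 2 and was -0.26 without it. Plin4 was at background with groups apart, and Hilpda, a droplet protein known to inhibit the lipase Pnpla2, was above the percentile on 1 array.

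**Figure D3:**
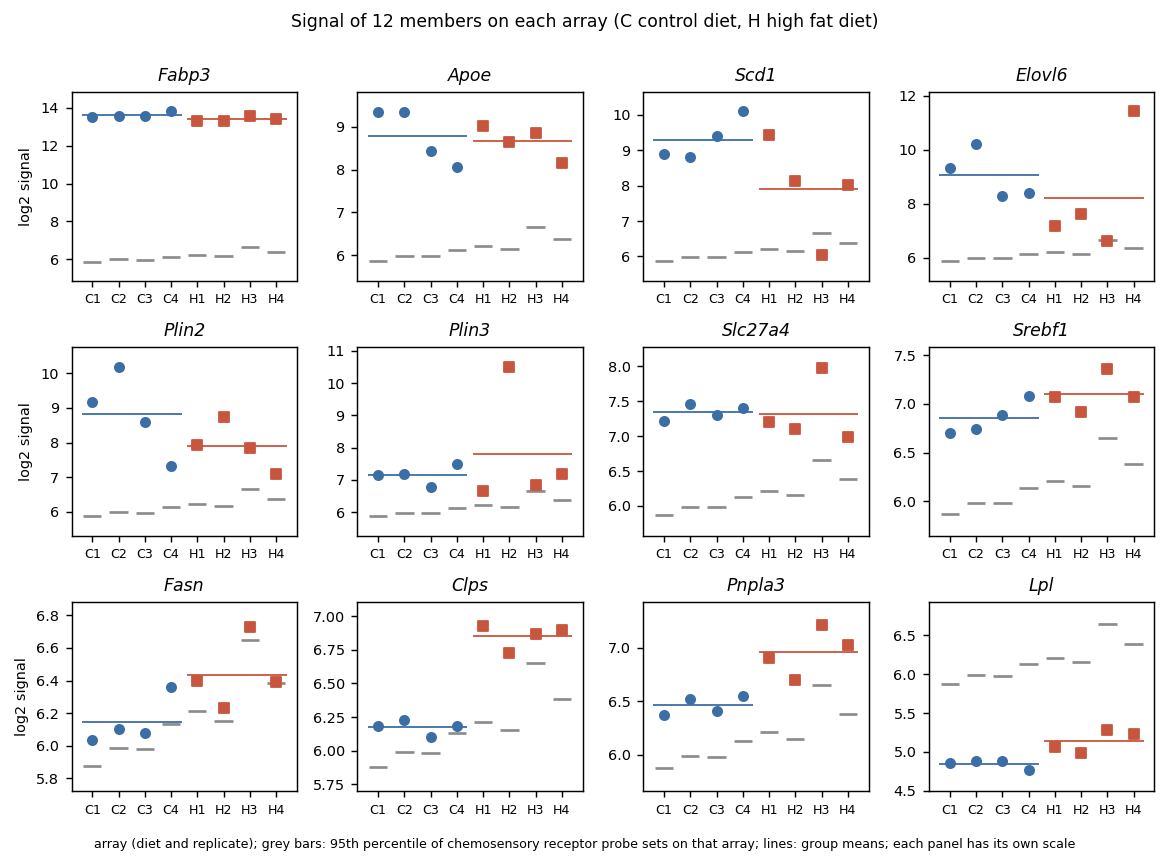
Log2 signal of 12 genes on each array, control diet as blue circles and high fat diet as red squares, with group means as lines and the receptors' 95th percentile of each array as grey bars; each panel has its own scale. Scd1, Elovl6, Plin2 and Plin3 spread widely between pools of the same diet, Fabp3 stays between 13.31 and 13.85, and Clps and Pnpla3 have groups apart just above the grey bars.

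The lipases Pnpla3 and Pnpla2 and the lipase cofactor Clps had high fat diet arrays above control arrays as deposited, and none passed. On all 8 arrays Clps, Pnpla3 and Pnpla2 were above the receptors' 95th percentile, and only Pnpla2 on 1 array was above the 99th. Clps, colipase, the cofactor of pancreatic lipase in the gut, had the smallest limma p of the 38 genes. It read at 6.18, 6.23, 6.10 and 6.18 and at 6.93, 6.73, 6.87 and 6.89, with the groups apart. The change was +0.68 with an SE of 0.08 and a 95% interval from +0.50 to +0.86 (limma adjusted p = 0.115), and +0.46 above the array-wide median. The groups stayed apart after median centring, quantile normalization and cyclic loess, with changes of +0.50, +0.52 and +0.38. Of 6 markers of exocrine pancreas 3 were measured. Ctrb1 was above the receptors' percentile on all arrays and Cel and Cpa1 on none, the mean of the 3 ran from 5.56 to 5.95 and from 5.69 to 6.18, and the part of any such signal in the reading of Clps was not tested.

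Pnpla3, a droplet protein with lipase activity that is known in liver as a target of SREBP control, read at 6.37, 6.52, 6.41 and 6.55 and at 6.91, 6.70, 7.21 and 7.03. The groups were apart, with a change of +0.50 and an SE of 0.12 (limma adjusted p = 0.115), and stayed apart after median centring (+0.31) and quantile normalization (+0.37) but not with cyclic loess (+0.20). Pnpla2, the lipase that opens triglyceride breakdown, read at 6.40, 6.52, 6.41 and 6.47 and at 6.71, 7.36, 6.72 and 6.58. High fat diet replicate 2 was the highest, and the change of +0.39 (SE 0.17, limma adjusted p = 0.16) was +0.22 without it and, with overlapping groups, +0.09 with cyclic loess.

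The promoters of Plin2 (chr4:86670010-86670309, minus strand) and Pnpla3 (chr15:84167566-84167865, plus strand) are shown as those of a droplet coat that read lower and a droplet lipase that read higher. In Plin2 the capitals mark, in order, a CCAAT box, an E-box (CACGTG) and a GC box (GGGCGG), and in Pnpla3 they mark 3 GC boxes and a CCAAT box on either strand.
Plin2: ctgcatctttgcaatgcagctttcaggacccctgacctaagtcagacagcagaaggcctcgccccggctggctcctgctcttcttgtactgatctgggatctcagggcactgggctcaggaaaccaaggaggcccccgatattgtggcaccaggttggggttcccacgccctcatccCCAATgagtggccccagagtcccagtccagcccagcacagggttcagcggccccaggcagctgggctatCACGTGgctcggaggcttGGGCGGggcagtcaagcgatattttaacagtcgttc
Pnpla3: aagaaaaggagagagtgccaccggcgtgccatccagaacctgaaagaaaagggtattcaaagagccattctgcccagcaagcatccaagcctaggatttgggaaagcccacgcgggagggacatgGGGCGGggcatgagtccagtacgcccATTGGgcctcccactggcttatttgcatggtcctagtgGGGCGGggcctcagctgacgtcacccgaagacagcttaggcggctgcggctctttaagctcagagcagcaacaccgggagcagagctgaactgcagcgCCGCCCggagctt

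Lipoprotein genes were measured for 2 of 4. Apoe, the apolipoprotein that carries lipid between cells, was above the receptors' 99th percentile on all 8 arrays. It read at 9.33, 9.35, 8.43 and 8.05 and at 9.01, 8.63, 8.85 and 8.14, and the groups overlapped over most of their range (change -0.13, SE 0.34, limma adjusted p = 0.79). Mttp, the transfer protein that loads lipid onto apolipoprotein B, was at background. It read at 4.51, 4.40, 4.43 and 4.48 and at 4.64, 4.63, 4.69 and 4.70, with groups apart and a change of +0.21 (SE 0.07, limma adjusted p = 0.12), just under the median of the array. Apoe and Mttp are also known from primitive endoderm and its descendants. Of the markers of that tissue 13 of 14 were measured and 6 were above the receptors' percentile on all arrays. Their mean ran from 6.32 to 6.48 with the control diet and from 6.53 to 6.84 with the high fat diet. The highest means were those of Dab2 (10.63 to 11.78 over the 8 arrays), Gata6 (7.39 to 8.05) and Col4a1 (6.59 to 7.38). Sox7, Pdgfra, Ttr and Afp lay below the percentile on every array. Groups were apart in the higher direction for 5 of the 13, against 25.4% of all tested probe sets, and in the lower for 0, against 0.855%. The part of such cells was not tested.

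Genes with a strong signal are described apart from the dim ones, and the difference between the 2 groups was not tested. Above the receptors' 99th percentile on at least 7 of the 8 arrays were 6 genes, Fabp3, Apoe, Scd1, Plin2, Elovl6 and Slc27a4, a grouping made after their values were seen. All 6 read lower with the high fat diet, from -1.40 to -0.03 with a median of -0.52, and 0 of them passed or had groups apart. Among the 2084 probe sets of the whole array at this level the median was +0.10 and 45.0% were below 0. With quantile normalization 4 of the 6 read lower and with cyclic loess 5, against 37.8% and 44.6% of all probe sets at this level. Apoe and Slc27a4 turned to +0.22 and +0.08 with quantile normalization and Fabp3 to +0.28 with cyclic loess. The 6 genes did not share an order of arrays. Scd1 was highest on control diet replicate 4, where Plin2 and Apoe had their lowest control values, and Elovl6 was highest on high fat diet replicate 4, where Plin2 was lowest. The median SD within diets of these 6 genes was 0.75, against 0.52 for all probe sets at this level, and that of the 14 genes at background was 0.15, against 0.16.

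**Figure D4:**
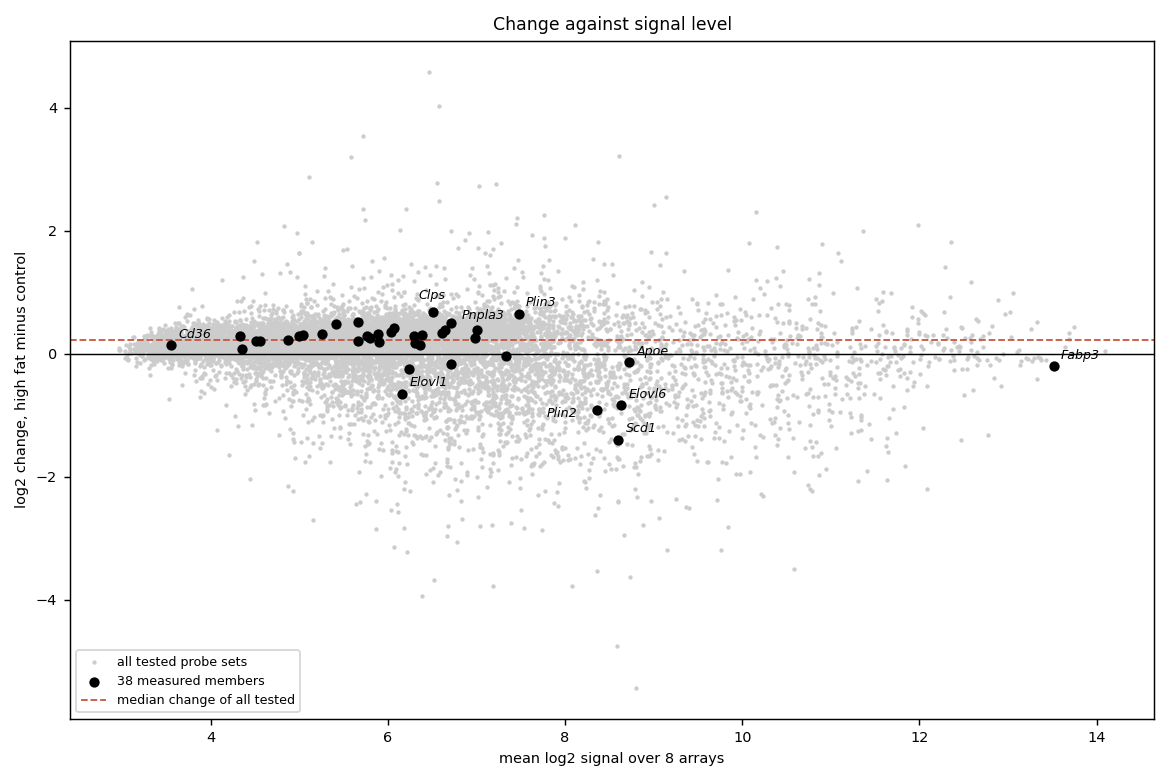
Log2 change (high fat diet minus control diet) against the mean log2 signal over 8 arrays for all 16015 tested probe sets in grey and the 38 measured genes in black. The dim genes sit around the dashed line at +0.22, and Scd1, Plin2 and Elovl6 lie below 0 among probe sets that scatter widely at the same signal.

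Promoters were compared for the 33 of 44 genes with an entry in the RefSeq table, beside 27025 genes with an entry. The median GC content was 59.3% with 14 CpG dinucleotides, against 52.7% and 7 for all. The 5 strong-signal genes with an entry had a median of 14 CpG, the 13 genes of intermediate signal 17 and the 10 genes at background 7.5. The 5 genes with an entry that were not measured had 19. On either strand, a GC box stood in 48.5% of the listed genes' promoters against 35.9% of all, a CCAAT box in 45.5% against 37.9%, an E-box in 9.09% against 7.24%, a TATA box (TATAAA) in 6.06% against 14.2%, and the sterol regulatory element in 3.03% against 1.22%. The direct repeat of AGGTCA spaced by 1 base, which PPAR factors are known to bind, was in none of the 33 and in 0.0444% of all. These are matches of letters in windows of 300 bases, and no motif of this set contains another.

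A further 64 genes of the same pathways were listed, of which 52 were measured. None passed the limma threshold in either direction. At an unadjusted limma p under 0.05, 17 read higher and 0 lower, against 30.1% and 1.79% of all tested probe sets. Groups were apart in the higher direction for 13 and in the lower for 0, against 25.4% and 0.855%. A change above 0 was seen for 43 of 52, against 78.7%, and the median was +0.22, as for all tested. The genes with the smallest limma p were Scap, which escorts SREBP factors from the endoplasmic reticulum (5.77 ± 0.15 and 6.20 ± 0.05, SD, n = 4 each), Plin1, the droplet coat of adipocytes (7.13 ± 0.06 and 7.62 ± 0.24), and the phosphatidate phosphatase Lpin3 (5.77 ± 0.08 and 6.15 ± 0.20). They were followed by the desaturase Scd3 (4.12 ± 0.08 and 4.38 ± 0.06), the lipase inhibitor G0s2 (6.90 ± 0.15 and 7.30 ± 0.20) and the acyltransferase Agpat3 (5.60 ± 0.11 and 5.96 ± 0.19). Their limma adjusted p ran from 0.115 to 0.120. Of these 6 genes, Plin1 and G0s2 were above the receptors' 95th percentile on all 8 arrays, Scap on 1, and Lpin3, Scd3 and Agpat3 on none.

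The readings above depended on how arrays were scaled. Median centring lowered the array-wide median change from +0.22 to +0.03, quantile normalization to +0.06 and cyclic loess to -0.00, and the median of the 38 genes went with it to +0.06, +0.10 and +0.01. The number of genes higher with the high fat diet was 29, 25, 29 and 22 as deposited and under these 3 scalings, against 78.7%, 56.3%, 62.3% and 49.7% of all tested. Groups apart in the higher direction fell in number from 12 to 2 after median centring and after quantile normalization (Pnpla3 and Clps) and to 1 with cyclic loess (Clps), against 7.07%, 8.94% and 3.35% of all tested. Scd1, Plin2, Elovl6, Elovl1, Acly and Agpat2 were lower under all 4 scalings. Without high fat diet replicate 3 the median change was +0.19, against +0.16 for all tested. Groups that are apart stay apart when an array is left out, so the 12 genes could only be kept or joined by others. Without that replicate 12 genes had groups apart in the higher direction, against 26.2% of all tested. In the lower direction there were 2, Slc27a4 and Fabp3, against 1.20%. Without control diet replicate 4 the number in the higher direction was 22, against 35.4% of all tested.

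**Figure D5:**
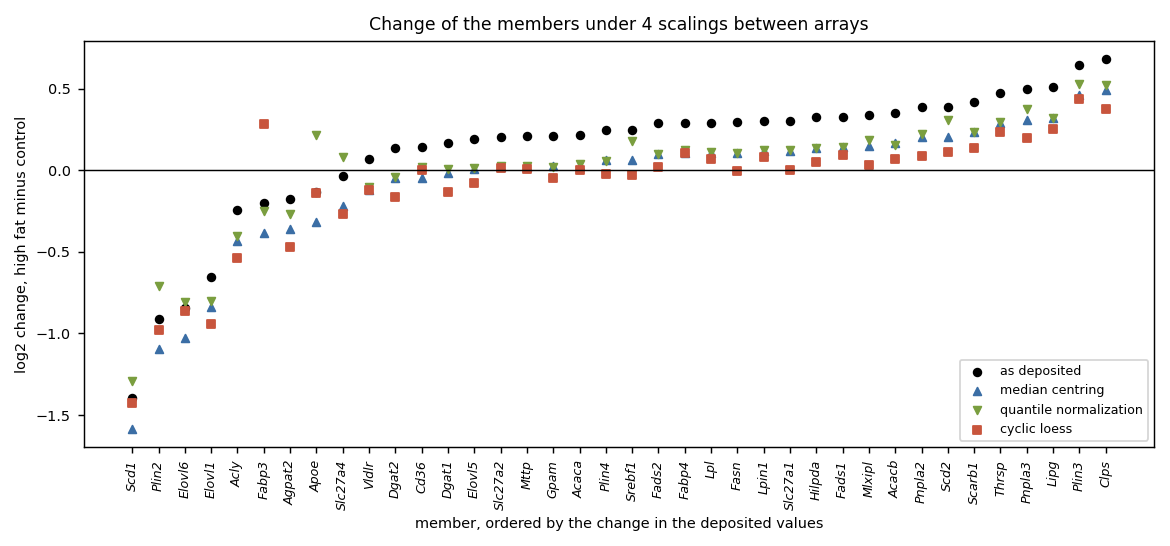
Log2 change of each of the 38 genes with values as deposited (black circles), after median centring (blue), after quantile normalization (green) and after cyclic loess (red squares), ordered by the change as deposited. The genes in the middle move towards 0, Scd1 stays between -1.58 and -1.29, and Clps stays between +0.38 and +0.68.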

How the data were processed

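The authors deposited log2 signals of 8 arrays in 1 table of 23332 probe sets. RMA and Partek, without a version, are the tools in the submitters' processing notes. RMA usually combines background correction, quantile normalization and probe summary, yet the deposited arrays differed in their median. Its settings and the genome build were not given in the sources used here. Amplification of small RNA amounts, in 2 rounds per the labels' protocols, can widen the spread between pools. Columns were matched to samples by label, and 0 belonged to other samples.

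The platform annotation gave 14996 probe sets 1 symbol and 1019 several, and 7317 were unnamed. Symbols were updated by gene ID through the RefSeq table of GRCm38.p6 (14941 matched, 55 kept their name). Diets were compared over 16015 probe sets with limma 3.58.1 in R 4.3.3 (lmFit, eBayes, two-sided, Benjamini-Hochberg), without a replicate block. Standard errors and intervals are limma's moderated ones. This fit was also run on simulated arrays with known changes as a check of the code. Background was the 95th percentile of 843 receptor probe sets (symbols Olfr, Vmn1r, Vmn2r, Taar, Tas1r and Tas2r), with the 99th as the alternative. Values on every array were given for the 14 genes with the smallest limma p and for the 6 further genes above background on all 8 arrays with the largest spread. Up to 6 other pathway genes and 3 genes per marker list were to be named, and further markers were named outside that rule. Other genes are said to be chosen later or outside the rule, or are given by ranges. Alternatives changed the scaling, the replicate block, the variance model, a filter on dim probe sets, and left out each array. The genes and lists were chosen with earlier results of these data known, so no list was tested as a set.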

Additional observations from a re-analysis of the deposited data

Results flagged for a closer look

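Within a diet, 8 of 76 groups of 4 values held 1 array that lay far from the other 3, with a gap to the nearest that took up most of the range (Dixon's 95% critical value), where chance alone flags about 1 in 20 groups (3.8 of 76). Among control arrays, Acly read at 7.60 on replicate 2, against 5.89 to 6.01 on the others. Acaca read at 5.12 on control diet replicate 4, against 4.63 to 4.68, and at 5.58 on high fat diet replicate 2, against 4.74 to 4.82, all at background. Fads1 read at 4.85 on control diet replicate 1, against 5.16 to 5.21, also at background. Fabp3 read at 13.85 on control diet replicate 4, against 13.51 to 13.55, and Dgat1 at 6.80 on control diet replicate 1, against 6.01 to 6.07. Among high fat diet arrays, Scd2 read at 7.74 on replicate 4, against 6.98 to 7.09, and Plin3 at 10.52 on replicate 2, against 6.66 to 7.17. The flags fell on 5 different arrays, and none on high fat diet replicate 3, the array that stood apart as a whole.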

How the results depend on the processing

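Of the 38 genes, 0 passed the limma threshold under any alternative, the lowest limma adjusted p of a gene being 0.094. Of the other pathway genes, 0 passed under any alternative. The median change of the 38 genes, +0.25, was +0.0072 with cyclic loess and +0.19 to +0.29 when single arrays were omitted. Genes with groups apart in the higher direction numbered 12 as deposited (25.4% of all tested), 2 with median centring (7.07%), 2 with quantile normalization (8.94%), 1 with cyclic loess (3.35%) and 7 of 25 at or above the median level (24.1%), and 12 to 22 when single arrays were omitted (22 without control diet replicate 4, where 35.4% of all tested were apart). Omitting an array cannot make groups that are apart overlap, so that number could not fall below 12. In the lower direction there were 0 as deposited (0.855% of all tested), 1 with median centring (2.62%), 1 with quantile normalization (1.89%), and 0 to 2 when single arrays were omitted (1.20% to 1.79%). Above the receptors' percentile on all 8 arrays were 13 genes with the 95th and 2 with the 99th percentile. The sign turned with median centring for Cd36 (-0.045), Vldlr (-0.12), Dgat1 (-0.019) and Dgat2 (-0.048). With quantile normalization it turned for Slc27a4 (+0.080), Vldlr (-0.10), Dgat2 (-0.044) and Apoe (+0.22). With cyclic loess it turned for Fasn (-0.0032), Elovl5 (-0.079), Srebf1 (-0.031), Fabp3 (+0.28), Vldlr (-0.12), Gpam (-0.048), Dgat1 (-0.13), Dgat2 (-0.16) and Plin4 (-0.020). When single arrays were omitted the change ran from -0.40 to +0.17 for Acly, -0.25 to +0.078 for Slc27a4, -0.46 to +0.30 for Agpat2, -0.024 to +0.37 for Dgat1, -0.26 to +1.03 for Plin3 and -0.38 to +0.053 for Apoe, and it kept its sign for the other 32 genes. The replicate block gave 0 calls and turned no sign. Deviations of same-numbered arrays correlated at -0.02 to +0.08, and those of other pairs across diets at -0.10 to +0.07. With 4 pools a diet these values cannot decide whether the numbers pair the samples, and the labels do not say. No gene had a second probe set, so that alternative gave no value. Signals below the receptors' percentile carry no fold, and 4 pools a diet limit the precision.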

Other observations

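Several related genes outside the 44, chosen after their values were seen, read far above background in some pools and at background in others of the same diet. Elovl7, an elongase, read at 6.14, 8.72, 5.46 and 6.98 with the control diet and at 11.55, 4.89, 4.80 and 4.87 with the high fat diet. Fabp6, the ileal bile acid binding protein, read at 4.70, 8.37, 4.60 and 5.31 and at 5.06, 9.64, 5.17 and 4.70. Hsd17b12, the reductase of the elongation cycle, read at 7.61, 9.06, 6.81 and 10.09 and at 9.19, 5.89, 5.99 and 6.31. In contrast Hacd2, the dehydratase of the same cycle, stayed between 11.67 and 12.50 on all 8 arrays, and Insig1, which holds SREBP factors in the endoplasmic reticulum, between 7.75 and 8.77. None of these genes passed the limma threshold (adjusted p from 0.17 to 0.90).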
